A study of Homo sapiens with 6 samples.

Results

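Genes of translation termination and ribosome rescue, 10 in all, were followed in the transcriptome of HDQ-P1 cells exposed to the small molecule Y-320. They encode the release factors (ETF1, GSPT1, GSPT2), the recycling factor ABCE1, the rescue pair PELO and HBS1L, the release factor modifiers N6AMT1 and JMJD4, the collision sensor ZNF598 and the poly(A)-binding protein PABPC1. The genes were picked by name for their role at the end of translation, with earlier results of these data known. The table held 40295 gene rows, of which 16580 passed the filter on low counts, and all 10 genes were found and passed it.

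The RNA sequencing data comprised 6 libraries of total RNA from HDQ-P1, an established human breast carcinoma line that the study used as a model of readthrough because it carries a premature stop codon. In one group, 3 libraries came from cells exposed to 1 µM Y-320 for 48 h, and in the other 3 came from untreated cells, for which the labels give no solvent treatment. Both groups were grown in high-glucose medium with serum and an antibiotic and antimycotic mix, and the labels name neither G418 nor gentamicin for any library. Y-320 is a phenylpyrazoleanilide known as an inhibitor of IL-17 production, and the comparison asked which genes respond to it in cells used for readthrough assays.

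Translation ends when a stop codon enters the ribosome. The release factor eRF1, the product of ETF1, reads the stop codon together with the GTPase eRF3, made from GSPT1 or GSPT2, and water is then admitted to free the peptide. ABCE1 splits the ribosome afterwards, and when a ribosome stalls with no stop codon to read, PELO and HBS1L take the places of eRF1 and eRF3. A near-cognate tRNA that wins against eRF1 at a premature stop codon gives readthrough, which is why these genes belong to the subject of the study.

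With Y-320, 3 of the 10 genes rose (ZNF598, JMJD4 and PELO), 3 fell (ABCE1, PABPC1 and N6AMT1) and 4 did not pass the test (ETF1, GSPT1, GSPT2 and HBS1L). Counts were tested in edgeR (quasi-likelihood F-test), with p-values adjusted by the Benjamini-Hochberg method over all 16580 genes and a threshold of 0.05. These counts have to be read against a transcriptome in which 51.5% of tested genes passed, 26.2% higher and 25.4% lower. The groups of 3 libraries did not overlap for 6 of the 10 genes, with all Y-320 libraries above in 3 and below in 3. Over all tested genes, 29.8% had every Y-320 library above every untreated one and 29.4% had every one below. The median log2 fold change of the 10 genes was 0.03, against 0.00097 over all tested genes. Their median absolute log2 fold change of 0.21 was also near that of all genes, 0.213, so the share called and the size of the changes among the 10 were near those of the transcriptome at large.

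The end of each reading frame is shown first, because it is the signal on which these proteins act and because the mRNAs that encode them end on it too. Each line gives 12 bases of coding sequence, the stop codon in capitals and the 12 bases that follow, 5′ to 3′ on the coding strand, from the GENCODE 44 canonical transcripts on hg38.
ETF1: cttgatgactacTAGgtagtcgacatg
GSPT1: ccagagaaagacTAAgcattttcttga
GSPT2: ccagagaaggacTAAgcaattttcttg
ABCE1: ttcttggatgatTAGactgactctgag
PELO: tctgaagaggatTAAtgattgaaactt
HBS1L: gagataaaagaaTGAtgggtcagaatt
N6AMT1: ttcaccaagtctTAGcatacagtgtgt
JMJD4: gctgcggccccaTAGcacctgtcgtga
ZNF598: aggatcatcacgTAGctcccgccagcg

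Counting PABPC1, whose frame ends in TAA, 5 of the 10 genes end in TAG, 4 in TAA and 1, HBS1L, in TGA. TGA, the stop codon generally taken to be the most prone to readthrough, closes 49.4% of the 19831 coding genes with a readable canonical frame, TAA closes 28.2% and TAG 22.3%. Among 59 other genes of termination, recycling and ribosome quality control, TGA closes 38, or 64.4%. This is a count of letters in the annotation and was not tested. All 3 genes that rose and all 3 that fell end in TAG or TAA, as do ETF1, GSPT1 and GSPT2, which did not pass.

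Both release factor modifiers act on the protein made from ETF1, and their target codons are shown to tie them to it. N6AMT1, with its partner TRMT112, methylates the glutamine of the GGQ motif that reaches the peptidyl transferase centre. JMJD4 hydroxylates the lysine of the NIKS motif that lies at the stop codon. In the ETF1 reading frame the glutamine was codon 185 and the lysine codon 63, each in capitals with 15 bases before it and up to 12 after it.
ETF1 GGQ: cacggtagaggaggtCAGtcagccttg
ETF1 NIKS: actgcatctaacattAAGtcacgagtaaac

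The PELO reading frame of 385 codons held neither motif, and the protein is known to act on stalled ribosomes without reading a stop codon or freeing a peptide. In the edgeR test the 2 modifiers did not move together with Y-320, since JMJD4 rose and N6AMT1 fell, while ETF1 did not pass. The N6AMT1 call was lost under some other settings, such as DESeq2 (adjusted p = 0.198). The JMJD4 rise shrank to 0.15 on the log2 scale when SNAP47, whose exons overlap it, was summed in.

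**Figure D1:**
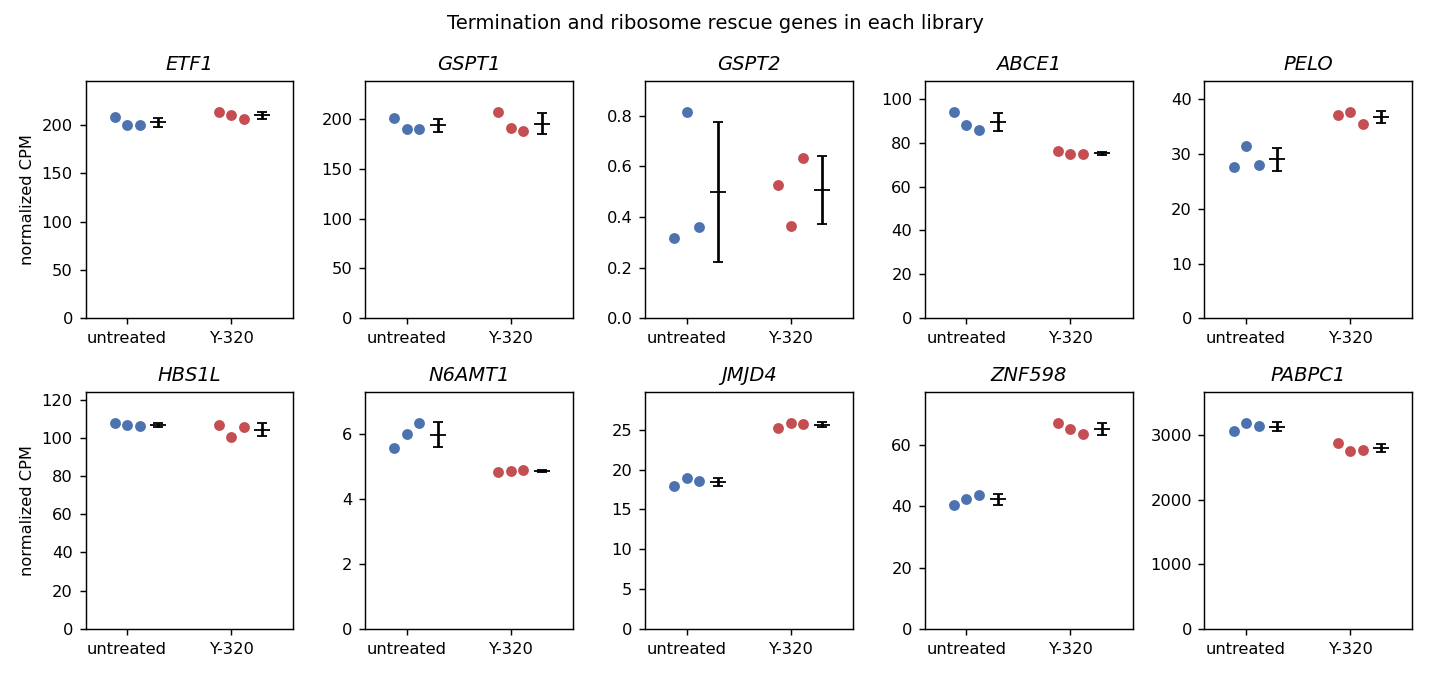
Normalized CPM (vertical axes, each from 0 and on its own scale) of the 10 genes in the 3 untreated and 3 Y-320 libraries, one point per library, with the mean and SD (n = 3) as bars. The points of the 2 groups are apart for ABCE1, PELO, N6AMT1, JMJD4, ZNF598 and PABPC1 and overlap for ETF1, GSPT1, GSPT2 and HBS1L.

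No release factor gene passed the test. ETF1 (chr5:138506095-138543236, minus strand, hg38, 11 exons) encodes eRF1, and its level in CPM (counts scaled to a common library size) was 208, 200 and 200 in untreated cells and 214, 210 and 206 with Y-320. The ranges overlapped, with an SD of 4.60 CPM in untreated cells and 3.67 CPM with Y-320 (n = 3 each). The log2 fold change was 0.05 (SE 0.027, edgeR adjusted p = 0.153), with a 95% interval from -0.01 to 0.11. A rise of more than 0.11 on the log2 scale or a fall of more than 0.01 therefore lay outside the interval.

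GSPT1 (chr16:11868128-11916082, minus strand, 15 exons) encodes eRF3a, the GTPase that delivers eRF1 to the ribosome. It measured 201, 190 and 190 CPM in untreated cells and 207, 191 and 188 CPM with Y-320. The libraries of both groups were interleaved, and the log2 fold change was 0.01 (SE 0.040, edgeR adjusted p = 0.825, 95% interval -0.08 to 0.10). Within each library GSPT1 had 0.947 to 0.965 counts per ETF1 count in untreated cells and 0.907 to 0.968 with Y-320. The log2 ratio differed by -0.04 between groups (exact permutation test, two-sided, p = 0.4, adjusted over 7 ratios 0.467).

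GSPT2 (chrX:51743442-51746232, plus strand) is the intronless paralog of GSPT1 and encodes eRF3b. Its 1 exon received 7, 17 and 8 counts without treatment and 12, 8 and 14 with Y-320. At this depth the 95% interval of its log2 fold change ran from -0.91 to 0.99 around 0.04 (SE 0.43, edgeR adjusted p = 0.948), so a change by less than about that much in either direction was not detectable. GSPT2 had between 0.00158 and 0.00430 counts per GSPT1 count, and the direction of that ratio turned when single libraries were left out (-0.17 to 0.55 on the log2 scale, against 0.11 with all 6). Of the 31-base words of GSPT2 transcripts, 2.28% also occurred in GSPT1 and in no other gene. An unknown part of its few counts may therefore belong to the far more abundant paralog.

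ABCE1 (chr4:145098288-145129524, plus strand, 18 exons) encodes the iron-sulfur ATPase that enters after eRF1 or PELO and splits the ribosome into its subunits. It measured 94.0, 88.2 and 86.0 CPM in untreated cells and 76.1, 74.7 and 74.9 CPM with Y-320. Every Y-320 library lay below every untreated one. It fell by 15.9%, a log2 fold change of -0.25 (SE 0.037, edgeR adjusted p = 2.50e-04, 95% interval -0.33 to -0.17).

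The fall of ABCE1 set it apart from ETF1 within the same libraries. Untreated cells had 0.451, 0.440 and 0.429 ABCE1 counts per ETF1 count, and cells with Y-320 had 0.356, 0.355 and 0.363. The groups did not overlap, and the log2 ratio was lower by 0.30 with Y-320 (difference -0.30, exact permutation test, two-sided, p = 0.1, adjusted over 7 ratios 0.175). A p of 0.1 is the smallest that 3 libraries against 3 allow, so this test cannot reach 0.05. Leaving out single libraries moved the difference only between -0.32 and -0.28. The exons of OTUD4 share 4.41% of the ABCE1 exon bases on the other strand. OTUD4 fell by 0.24 on the log2 scale as well (edgeR adjusted p = 5.78e-05), and its part in the ABCE1 value was not tested. Of the words of ABCE1 transcripts, of the same length as those counted for GSPT2, 19.4% also occurred in other genes, unnamed ones first. No pseudogene row was matched to ABCE1, so the pseudogene sums did not test the part of these genes in its value.

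Of the rescue pair, PELO passed the test and HBS1L did not. PELO (chr5:52787916-52804044, plus strand, 3 exons) encodes Pelota, the eRF1 relative that enters the empty decoding site of a stalled ribosome. It measured 27.6, 31.5 and 28.0 CPM in untreated cells and 37.1, 37.7 and 35.5 CPM with Y-320. All Y-320 libraries lay above all untreated ones, by 26.8% on average. The log2 fold change was 0.34 (SE 0.055, edgeR adjusted p = 4.05e-04, 95% interval 0.22 to 0.46).

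PELO lies inside ITGA1, an integrin gene on the same strand, and the exons of ITGA1 cover 11.4% of the PELO exon bases. ITGA1 fell by 0.25 on the log2 scale (13.2 to 11.1 CPM, edgeR adjusted p = 0.00998), the direction opposite to that of PELO. With the counts of both genes summed, a check chosen after the values were seen, the log2 fold change was 0.18 (SE 0.045, edgeR adjusted p = 0.00668).

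HBS1L (chr6:134960378-135103056, minus strand, 18 exons) encodes the eRF3-like GTPase that delivers PELO, and a short isoform of the same gene links the exosome to the SKI complex. Gene counts do not separate the isoforms. It measured 108, 107 and 106 CPM in untreated cells and 107, 101 and 106 CPM with Y-320, with overlapping groups. The log2 fold change was -0.03 (SE 0.031, edgeR adjusted p = 0.391, 95% interval -0.10 to 0.03).

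Untreated cells had 3.90, 3.38 and 3.79 HBS1L counts per PELO count, and cells with Y-320 had 2.88, 2.67 and 2.97. All 3 ratios with Y-320 were below the untreated ones. The log2 ratio differed by -0.38 (exact permutation test, two-sided, p = 0.1, adjusted 0.175). Against ETF1, PELO went from between 0.133 and 0.157 counts per ETF1 count to between 0.172 and 0.179, a log2 difference of 0.29 with the same exact p = 0.1. Counts per gene depend on transcript length, so only the shift of these ratios can be read, not their size.

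**Figure D2:**
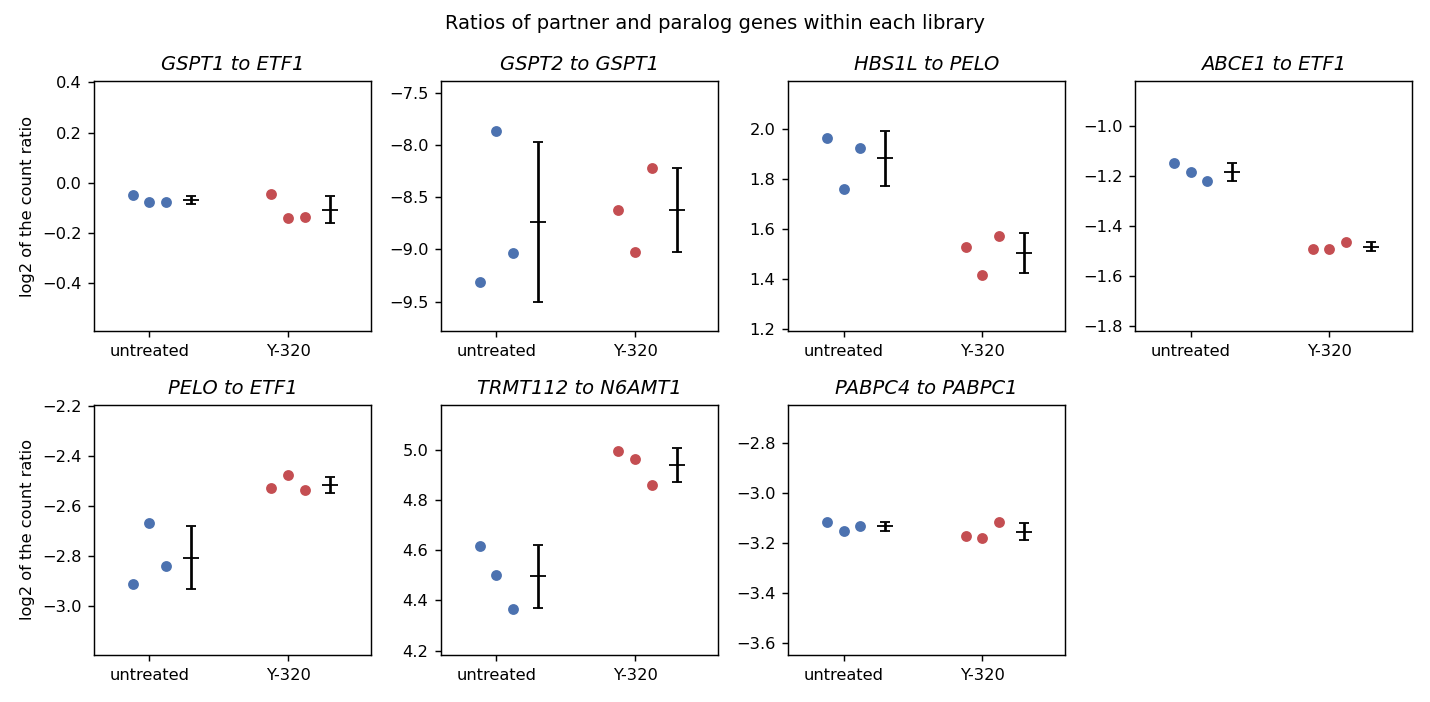
Log2 of the ratio of counts between partner or paralog genes within each library (vertical axes, each with its own origin), one point per library, with mean and SD (n = 3). The ratios HBS1L to PELO and ABCE1 to ETF1 are lower with Y-320 in every library, PELO to ETF1 and TRMT112 to N6AMT1 are higher, and the other 3 overlap.

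JMJD4 (chr1:227730425-227735411, minus strand, 6 exons) encodes the oxygen-dependent lysyl hydroxylase of eRF1. It measured 17.9, 18.9 and 18.6 CPM in untreated cells and 25.3, 25.9 and 25.8 CPM with Y-320. The groups did not overlap, and the rise of 38.7% was the next largest after ZNF598 among the 10 genes. The log2 fold change was 0.47 (SE 0.047, edgeR adjusted p = 1.28e-05, 95% interval 0.37 to 0.58).

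SNAP47, on the opposite strand, covers 53.8% of the JMJD4 exon bases, and 50.9% of the 31-base words of JMJD4 transcripts also occur in other genes, SNAP47 foremost. No strand setting is given for the counting, so reads from the shared stretch may have been assigned to either gene. SNAP47 itself had 33.0 CPM in untreated cells and 31.5 CPM with Y-320 and did not pass the test (log2 fold change -0.06, edgeR adjusted p = 0.23). The sum of both genes, a check chosen after the values were seen, still passed, with a log2 fold change of 0.15 (SE 0.035, edgeR adjusted p = 0.00389).

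N6AMT1 (chr21:28872191-28885371, minus strand, 6 exons) encodes the methyltransferase of the eRF1 glutamine. It was weakly expressed, at 5.57, 5.99 and 6.34 CPM in untreated cells and 4.81, 4.85 and 4.87 CPM with Y-320. The groups did not overlap. It fell by 18.8%, a log2 fold change of -0.30 (SE 0.10, edgeR adjusted p = 0.0307, 95% interval -0.53 to -0.07), the widest interval of the 6 changes.

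Each N6AMT1 value rested on 106 to 140 counts. The call was lost with no filter on low counts (edgeR adjusted p = 0.0744), with DESeq2 (adjusted p = 0.198) and when any 1 library other than untreated replicate 1 was left out. Over these 6 leave-one-out fits the log2 fold change ranged from -0.35 to -0.26 and the edgeR adjusted p from 0.0259 to 0.106.

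TRMT112, the small activating subunit that N6AMT1 shares with several other methyltransferases, rose from 135 ± 3.16 to 149 ± 6.32 CPM (log2 fold change 0.15, SE 0.035, edgeR adjusted p = 0.00532). The count ratio of TRMT112 to N6AMT1 was therefore 20.6 to 24.6 in untreated cells and 29.1 to 31.9 with Y-320, without overlap. The log2 difference was 0.44 (exact permutation test, two-sided, p = 0.1, adjusted 0.175).

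ZNF598 (chr16:1997654-2009821, minus strand, 14 exons) had the largest change of the 10 genes. It encodes the ubiquitin ligase that recognises collided ribosomes and marks proteins of the small subunit, the step that commits a stalled ribosome to quality control. Its level was 40.5, 42.4 and 43.8 CPM in untreated cells and 67.3, 65.1 and 63.5 CPM with Y-320. The lowest Y-320 library was far above the highest untreated one.

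The mean of ZNF598 rose by 54.6%, from 42.2 ± 1.66 to 65.3 ± 1.92 CPM (SD, n = 3). The log2 fold change of 0.63 (SE 0.040, edgeR adjusted p = 5.00e-07, 95% interval 0.54 to 0.72) stood at the 93.3rd percentile of all tested genes. It stayed between 0.60 and 0.65 when single libraries were left out. An unnamed long non-coding gene on the other strand shares 10.7% of the ZNF598 exon bases.

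PABPC1 encodes the main cytoplasmic poly(A)-binding protein, which touches eRF3 from the poly(A) tail and favours termination at the normal stop codon. It was the most abundant of the 10 mRNAs by far, with 3061, 3193 and 3143 CPM in untreated cells and 2871, 2753 and 2776 CPM with Y-320. All Y-320 libraries were lower. PABPC1 fell by 10.6% (log2 fold change -0.16, SE 0.022, edgeR adjusted p = 1.30e-04, 95% interval -0.21 to -0.11). Because PABPC1 alone held 0.277% to 0.316% of all counts and the 10 genes together 0.348% to 0.384%, its fall lowered the total of the group. Of the 31-base words of PABPC1 transcripts, 11.4% occur in other genes, the intronless paralog PABPC3 first. Its 13 annotated pseudogene rows held only 6.05 to 15.1 counts a library in sum.

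PABPC4, an inducible paralog, fell from 357 ± 3.26 to 314 ± 8.88 CPM (log2 fold change -0.18, SE 0.026, edgeR adjusted p = 1.82e-04). There were 0.113 to 0.115 PABPC4 counts per PABPC1 count in untreated cells and 0.110 to 0.115 with Y-320, and the log2 difference of -0.02 did not stand out from the spread (exact permutation test, two-sided, p = 0.3, adjusted 0.42).

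**Figure D3:**
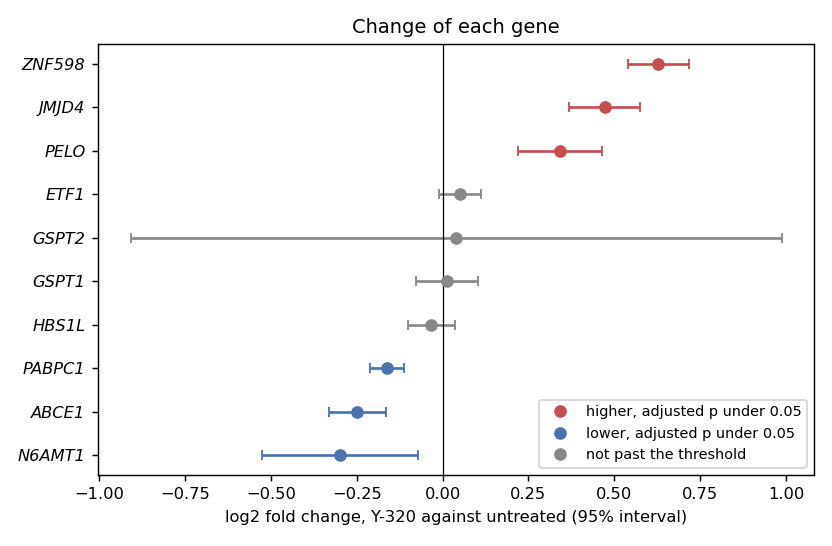
Log2 fold change of each of the 10 genes with Y-320 against untreated (horizontal axis) with its 95% interval from the edgeR fit. ZNF598, JMJD4 and PELO lie above 0, PABPC1, ABCE1 and N6AMT1 below, and the interval of GSPT2 is the widest, from -0.91 to 0.99.

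Levels were compared between genes only after division by the length of the canonical transcript, in CPM per kilobase. In untreated cells PABPC1 stood at 1095 ± 23.3, ETF1 at 55.1 ± 1.25, GSPT1 at 27.1 ± 0.921 and ABCE1 at 23.0 ± 1.07 (SD, n = 3). HBS1L followed at 15.1 ± 0.143, ZNF598 at 12.5 ± 0.494, JMJD4 at 7.44 ± 0.198 and PELO at 6.64 ± 0.492. N6AMT1 at 1.23 ± 0.0794 and GSPT2 at 0.179 ± 0.0987 were the lowest. The release factor ETF1 thus exceeded its rescue counterpart PELO per length, and the libraries of neighbouring genes in this order did not overlap. JMJD4 and PELO came closest, with 7.22 to 7.61 against 6.32 to 7.21.

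With Y-320, ZNF598 stood at 19.4 ± 0.569 CPM per kilobase of canonical transcript, beside ABCE1 at 19.4 ± 0.196, with overlapping libraries, and above HBS1L at 14.7 ± 0.455. These positions depended on the length used. With the mean length of the annotated coding transcripts, ZNF598 with Y-320 was still 19.4 but HBS1L was 57.6 and ABCE1 32.2, so ZNF598 stayed below both, as it did in untreated cells. That length also turned the untreated order of HBS1L, at 58.9, and ABCE1, at 38.3.

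The promoters were searched for 4 motifs, on both strands, in the 250 bases before each RefSeq transcription start (GRCh38.p14). Of the 10 genes, 8 had an entry, and N6AMT1 and PABPC1, which both fell, had none. TGACGTCA, the cAMP response element, was present in 1.64% of 34788 promoters of that length. TGATGNAA, the composite element bound by C/EBP and ATF factors, was present in 3.16%, CCAAT in 32.0% and CCGGAAG, an ETS motif, in 8.50%. Overlap between these motifs was allowed. ABCE1 held 1 TGACGTCA, which starts 98 bases before the transcription start, and no other gene of the 10 with an entry held one.

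The windows of the gene that fell and held this motif and of the gene with the largest rise are printed. Each is on its own coding strand, with the motif in capitals. The ABCE1 window is chr4:145098061-145098310 on the plus strand and the ZNF598 window is chr16:2009822-2010071 on the minus strand.
ABCE1 promoter: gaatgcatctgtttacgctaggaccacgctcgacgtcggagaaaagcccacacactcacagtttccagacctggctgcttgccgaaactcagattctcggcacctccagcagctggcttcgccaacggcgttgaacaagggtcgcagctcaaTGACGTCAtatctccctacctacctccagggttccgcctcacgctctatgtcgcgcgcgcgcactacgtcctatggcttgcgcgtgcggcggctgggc
ZNF598 promoter: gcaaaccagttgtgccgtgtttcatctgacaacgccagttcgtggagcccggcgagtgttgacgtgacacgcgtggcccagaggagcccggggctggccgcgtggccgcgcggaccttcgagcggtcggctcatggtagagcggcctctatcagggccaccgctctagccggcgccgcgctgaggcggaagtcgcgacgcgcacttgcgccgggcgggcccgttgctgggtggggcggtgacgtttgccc

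The ZNF598 window held none of the 4 motifs, and neither did those of PELO, JMJD4, HBS1L and GSPT2. ETF1 held CCAAT and CCGGAAG and GSPT1 held CCGGAAG. The 3 genes that rose therefore held none of the 4 motifs, like HBS1L and GSPT2, which did not pass the test. Of the genes that fell only ABCE1 had a window, so the motifs do not set rises against falls. A match or its absence says nothing on binding.

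The genes around these 10 were described from 7 lists of 59 genes, of which 58 were tested. The lists, too, were chosen with earlier results of these data known. Of the 58, 28 rose, 12 fell and 18 did not pass, so that 69.0% were called against 51.5% of all tested genes. Their median log2 fold change was 0.12, against 0.00097 over all genes. Their median absolute log2 fold change was 0.168, below the 0.213 of all tested genes, so the higher share called did not go with a larger typical change. The share called also depends on expression level, for which the lists were not matched. Rises outnumbered falls in 5 of the 7 lists, were equal to them in that of no-go and non-stop decay (1 each) and were fewer in that of recycling, and the lists were not tested against each other.

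Alongside ZNF598, 8 of 15 genes of collision sensing and stalled ribosome splitting rose, 2 fell and 5 did not pass (median 0.13). GTPBP2, a GTPase related to HBS1L and linked to stalled ribosomes, rose by 0.70 on the log2 scale (56.1 ± 1.12 to 91.0 ± 3.53 CPM, edgeR adjusted p = 1.32e-07). ASCC2, a ubiquitin-binding subunit of the complex that splits ribosomes marked by ZNF598, rose by 0.47. ASCC1, of the same list, fell by 0.17 (edgeR adjusted p = 8.99e-04). EDF1, which binds collided ribosomes, rose by 0.38, and MAP3K20, the kinase that signals from them, fell by 0.12 (edgeR adjusted p = 0.0180).

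All 9 genes of the quality control of nascent chains passed the test, 7 higher and 2 lower, with a median of 0.20. ANKZF1, which cuts the stalled peptide from its tRNA, rose by 0.67 on the log2 scale (means of 30.8 and 49.1 CPM, edgeR adjusted p = 1.01e-06). KLHDC10, a receptor for the tailed peptides, rose by 0.43 and LTN1, the ubiquitin ligase of the large subunit, by 0.28. NEMF, which adds the tails and recruits LTN1, fell by 0.34 on the log2 scale (edgeR adjusted p = 3.25e-05), and the unfoldase VCP fell by 0.21. The ligase and its recruiter thus went in opposite directions.

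The recycling list next to ABCE1 had 4 genes, of which 1 rose, 2 fell and 1 did not pass. DENR and MCTS1 form a dimer that removes the last tRNA from the small subunit. DENR fell by 0.29 on the log2 scale (108 ± 2.75 to 88.2 ± 2.11 CPM, edgeR adjusted p = 2.71e-05), while MCTS1 rose by 0.12 (edgeR adjusted p = 0.0155). EIF3J, which works with ABCE1 in recycling, fell by 0.12 (edgeR adjusted p = 0.0336).

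Among 13 termination partners and poly(A)-binding proteins, 5 rose, 4 fell and 4 did not pass (median 0.03). UPF2, which joins the exon junction complex to UPF1 in nonsense-mediated decay, rose by 0.27, whereas UPF1, the helicase that binds the release factors, fell by 0.22 (edgeR adjusted p = 3.39e-05). OGFOD1, the prolyl hydroxylase of a decoding-site ribosomal protein, rose by 0.25 and DDX19A, a DEAD-box helicase, by 0.18. PAIP2B, which removes PABPC1 from poly(A), fell by 0.46 on the log2 scale (SE 0.069, edgeR adjusted p = 2.63e-04).

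Of 5 genes of no-go and non-stop decay, DIS3, a nuclease of the exosome, rose by 0.34 and SKIC3 of the SKI complex fell by 0.11, and 3 did not pass. SKIC2, the helicase of that complex, is named after its values were seen. It had 5, 23 and 24 counts in untreated libraries and 9, 78 and 25 with Y-320, a spread too wide for its log2 fold change of 1.07 (edgeR adjusted p = 0.238). Of 8 genes of mitochondrial termination and rescue, 4 rose, 1 fell and 3 did not pass. HEMK1, the mitochondrial relative of N6AMT1 that methylates the organelle's release factors, rose by 0.48 (edgeR adjusted p = 5.24e-05), opposite to N6AMT1. MRPL58 and MTRFR, both peptide-releasing rescue factors, rose by 0.22 and 0.17, and GFM2, which recycles mitochondrial ribosomes, fell by 0.21.

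The last list held 5 genes for the reading of UGA as selenocysteine, an event that competes with termination. SECISBP2, which binds the recoding element, rose by 0.44 (edgeR adjusted p = 7.79e-05) and SEPHS2, which makes the selenium donor, rose by 0.29. Another 2 did not pass, and 1 was too low to test.

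**Figure D4:**
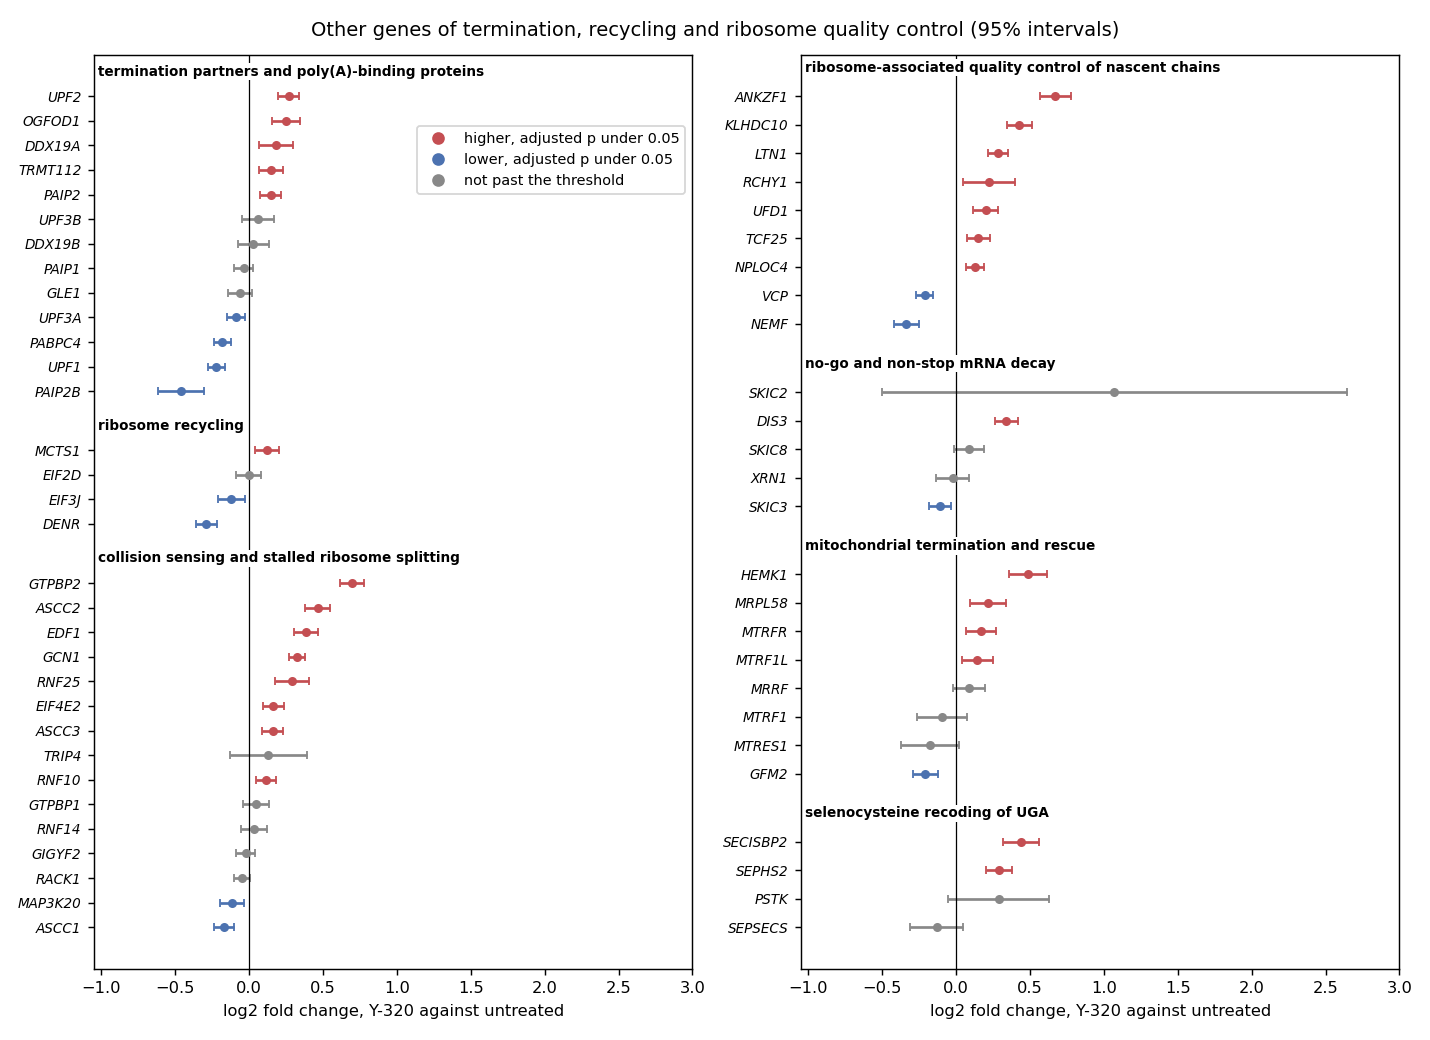
Log2 fold change with Y-320 against untreated (horizontal axis) with its 95% interval from the edgeR fit for the 58 tested genes of the 7 lists, each list sorted by fold change and coloured by its call. The list of nascent chain quality control has no gene left uncalled, and the interval of SKIC2 is the widest.

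The libraries were of like depth, from 21045401 to 22740535 estimated counts, and none stood apart. Replicate pairs differed by more than sampling noise alone (chi-square per degree of freedom 2.00 to 2.96) and pairs across groups by far more (40.1 to 42.3), so no library was a copy of another. All 5 epithelial markers were abundant, and their summed level was 8482 to 8823 CPM in untreated cells and 5208 to 5233 CPM with Y-320. KRT8, KRT18, KRT7 and CDH1 fell by 1.02, 0.86, 0.69 and 0.11 on the log2 scale and EPCAM rose by 0.38. The 5 markers of other cell types summed to 52.4 to 63.7 CPM and 39.7 to 47.0 CPM. None was at 0, PTPRC, DCN and MYH11 had at most 52 counts in any library, PECAM1 rose by 1.22 and COL1A1, the most abundant, fell by 0.70. The part of these shifts in the values above was not tested. The labels do not say whether replicates were separate cultures, so the p-values measure the spread between these libraries. In bulk RNA, fewer cells of a kind and less RNA per cell cannot be told apart.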

How the data were processed

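RNA was extracted from HDQ-P1 cells and sequenced on an Illumina NextSeq 500. The authors deposited 1 table of estimated counts per Ensembl gene for the 6 libraries, and the submitters' processing notes name kallisto 0.46.1 and the GRCh38/hg38 build. The annotation release, the strand setting and how transcripts were summed to genes are not given in the sources used here. Of the values, 40.1% were not whole (tolerance 1e-3), so they were rounded. Symbols were matched by Ensembl ID for 35390 of 40295 rows.

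Counts were tested with edgeR 4.0.16 in R 4.3.3 (filterByExpr with a minimum count of 10, TMM scaling, quasi-likelihood F-test, two-sided, Benjamini-Hochberg over all 16580 genes). The study's methods combined several pipelines and required a gene to pass in a stated share of them, but give no settings for a test. This standard test was chosen in their place, so its calls need not match those of the study. The SE was the log2 fold change over the square root of F, and CPM values are TMM-normalized. Ratios within libraries were compared by exact permutation, which with 3 against 3 cannot go below 0.1. The fit was tested on simulated counts in which only a small share of genes changed, unlike in these data. The other steps were not simulated. Alternatives used DESeq2 1.42.0, limma 3.58.1, other filters and scalings, unrounded counts, pseudogene sums, a replicate block and left-out libraries.

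Positions, overlaps, lengths, 31-base words and stop codons came from GENCODE 44 on hg38, and promoters from RefSeq GRCh38.p14. The Ensembl release behind the deposited IDs may differ from this annotation. No protein reference was used, and the GGQ and NIKS motifs were found by translating the ETF1 and PELO reading frames. The 10 genes, the lists and the motifs were chosen with earlier results of these data known. Named in the text are the 10 genes, TRMT112 and PABPC4, the markers, and in each list up to 3 genes with the largest rise and 3 with the largest fall past the threshold, with any exception stated.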

Additional observations from a re-analysis of the deposited data

How the results depend on the processing

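The counts of 3 genes higher and 3 lower were recomputed under 10 alternatives and with each library left out. Among the alternatives, the pseudogene sums had rows only for ETF1, JMJD4 and PABPC1, with at most 15.1 counts a library. They therefore hardly tested the calls. The number higher was 3 throughout and the number lower 2 or 3, the gene lost each time being N6AMT1. Its log2 fold change was -0.30 with no filter, with DESeq2 and with the replicate block (adjusted p = 0.0744, 0.198 and 0.0529). GSPT1, which did not pass, changed sign with upper-quartile scaling (-0.016) and ranged from -0.032 to 0.041 with a library left out, and GSPT2 from -0.20 to 0.57. GSPT2 could not be fitted with at least 10 counts in every library. Of the 59 other genes, 23 to 28 were higher and 8 to 13 lower under the alternatives. Over all genes the counts were 3405 to 4539 higher and 3278 to 4746 lower, and other scalings moved the median log2 fold change to 0.014 and -0.028.

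Libraries with the same replicate number did not deviate together (correlations -0.0024, 0.015 and 0.0022 across genes), so they share only a number. The replicate block ended no call among the 10 genes other than that of N6AMT1. With the mean length of coding transcripts, untreated levels per kilobase were 1474 for PABPC1, 92.3 for ETF1, 82.9 for GSPT1, 38.3 for ABCE1 and 58.9 for HBS1L. Depth limits GSPT2, with 7 to 17 counts a library, and N6AMT1, with 106 to 140.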
